A study of Mus musculus with 12 samples.

Results

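Dysferlin (Dysf) and 9 genes whose products work with it in resealing the plasma membrane were followed in mouse hearts: Myof, Cav3, Trim72, Anxa1, Anxa2, Anxa5, Anxa6, Ahnak and S100a10. They are 10 of the 24061 gene symbols in each count table and were found by symbol. Dysf was chosen because earlier results of these data had it higher in HKII+/- hearts and because it lies near Hk2, so its difference between the genotypes is given as a description with no test. The other 9 were named for their role. Poly(A) RNA was measured in 12 hearts of male C57BL/6J mice fed chow and aged 2 to 4 months, with 6 HKII+/- hearts, labelled heterozygous at the hexokinase II gene Hk2, and 6 HKII+/+ hearts. The labels do not say how the Hk2 allele was made or which parts of the heart were taken.

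A tear in the muscle cell membrane lets calcium in, and dysferlin, a ferlin with several calcium-binding C2 domains, helps vesicles fuse into a patch over the hole. TRIM72 (MG53) gathers vesicles at the wound, caveolin-3 holds both proteins at the muscle membrane, and annexins bind the exposed lipids once calcium rises. In the heart dysferlin sits at the surface membrane and at the T-tubules, and its loss in mice leads to a cardiomyopathy.

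The library labelled HKII+/- replicate 11 and HKII+/+ replicate 13 were marked by the submitters as potential outliers, and they stood apart for several of these genes. Values are therefore given over all 12 libraries and over the 10 unmarked ones (5 of each genotype). Libraries held 17263209 to 51556592 counts. Hk2, the gene whose dose was changed, measured 256 to 354 CPM (read counts scaled to a common library size, here with TMM factors computed over all 12 libraries) in the unmarked HKII+/- libraries, against 471 to 542 CPM in the unmarked HKII+/+ libraries. The library labelled HKII+/- replicate 11 held 568.2 CPM, inside the range of all 6 HKII+/+ libraries (471 to 653 CPM), but in plain CPM, without TMM factors, it held 446 CPM, above the unmarked HKII+/- libraries (271 to 351 CPM) and below all 6 HKII+/+ libraries (494 to 579 CPM). Whether Hk2 goes against the label of this library thus depends on the scaling. All 7 cardiomyocyte markers (Myl2, Myl3, Myh6, Tnnt2, Tnni3, Actc1 and Ryr2) were detected in every library. The 6 skeletal muscle markers summed to 1.54 to 7.02 CPM in unmarked HKII+/- libraries and 3.69 to 6.93 CPM in unmarked HKII+/+ libraries. In bulk heart RNA, fewer cells of a type and less RNA per cell cannot be told apart.

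The sequence upstream of 4 transcription starts is shown because Dysf, Cav3 and Trim72 were the genes of the set that stood high together in the marked libraries. RefSeq (GRCm38.p6) gives 2 starts for Dysf, and the second lies inside the gene. The Trim72 start is also inside its gene, as GENCODE vM21 places the gene from 128003949 to 128011033, so both windows lie within annotated genes. Each run covers 240 bases, from 250 to 11 bases before the start, all on the plus strand: chr6:84008348-84008587 and chr6:84019136-84019375 for Dysf, chr6:112459255-112459494 for Cav3 and chr7:128004128-128004367 for Trim72. Capitals mark matches on either strand to an E-box (CANNTG), the motif of MyoD-type factors, or a GC box (GGGCGG), the motif of Sp1.
Dysf start 1: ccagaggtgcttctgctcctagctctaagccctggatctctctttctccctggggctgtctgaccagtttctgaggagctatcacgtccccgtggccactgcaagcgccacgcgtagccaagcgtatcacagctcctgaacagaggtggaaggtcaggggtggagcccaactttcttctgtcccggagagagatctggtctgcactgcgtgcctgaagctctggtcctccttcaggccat
Dysf start 2: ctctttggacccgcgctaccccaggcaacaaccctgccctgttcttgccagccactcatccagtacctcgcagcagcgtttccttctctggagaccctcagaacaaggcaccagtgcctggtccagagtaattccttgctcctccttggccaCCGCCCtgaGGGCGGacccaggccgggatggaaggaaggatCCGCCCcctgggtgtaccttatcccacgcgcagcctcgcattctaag
Cav3: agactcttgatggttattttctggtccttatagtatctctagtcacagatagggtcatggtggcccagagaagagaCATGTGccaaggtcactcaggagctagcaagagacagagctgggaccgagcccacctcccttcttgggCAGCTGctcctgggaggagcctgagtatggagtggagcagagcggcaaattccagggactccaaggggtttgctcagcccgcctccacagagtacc
Trim72: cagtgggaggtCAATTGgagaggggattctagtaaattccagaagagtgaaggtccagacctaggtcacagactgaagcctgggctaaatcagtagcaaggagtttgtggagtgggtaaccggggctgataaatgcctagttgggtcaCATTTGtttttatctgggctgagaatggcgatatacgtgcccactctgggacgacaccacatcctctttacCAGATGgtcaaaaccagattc

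The Cav3 window held 2 E-boxes and the Trim72 window 3, while neither Dysf window held one. The second Dysf window held 3 GC boxes, and the others held 0. Of 32841 RefSeq windows of this length, 65.0% held an E-box and 31.3% a GC box. The MCAT element (CATTCC), searched on both strands, had no match in these 4 windows, beside 12.2% of all windows. The TATA box (TATAAA) had none either, beside 12.1%. The MEF2 motif and the SRF CArG box also had none, beside 2.83% and 1.44% of all windows. No matches overlapped one another. These matches describe letters in a window and are not shown to be sites.

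Per base of exon, the 10 genes spanned a wide range. Over the 10 unmarked libraries, Trim72 had the highest level, at 224 ± 20.8 CPM per kilobase of exon (SD, n = 10), followed by Anxa6 at 83.0 ± 3.11, and the lowest library for Trim72 lay above the highest for Anxa6. Anxa5 (63.1 ± 3.57), Cav3 (55.1 ± 7.73) and Ahnak (47.7 ± 4.396 CPM per kilobase) came next. The ranges of neighbours in this order overlapped, so the place of Cav3 does not exceed the spread between libraries. The lowest library for Anxa5 (59.4) lay above the highest for Ahnak (52.8 CPM per kilobase). S100a10 (21.98 ± 1.62), Dysf (19.3 ± 2.68) and Anxa2 (18.95 ± 1.56 CPM per kilobase) also overlapped. Anxa1 stood at 9.01 ± 0.974, and Myof, the other ferlin of the set, was lowest at 1.52 ± 0.194 CPM per kilobase, below every library's value for Anxa1. Exon lengths are from GENCODE vM21, which may not be the annotation the reads were counted with.

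Dysf (ENSMUSG00000033788.15, protein coding, GRCm38 chromosome 6 from 84008590 to 84211060, plus strand) was higher in each unmarked HKII+/- heart than in each unmarked HKII+/+ heart. It measured 158 CPM in HKII+/- replicate 16, 160 in 12, 180 in 20, 193 in 22 and 198 in 19, against 134 CPM in HKII+/+ replicate 21, 136 in 15, 143 in 14, 154.8 in 18 and 154.9 in 17. The groups did not overlap, but the lowest HKII+/- library stood only just above the highest HKII+/+ library. The marked libraries held far more Dysf, with 348 CPM in the library labelled HKII+/- replicate 11 and 332 CPM in HKII+/+ replicate 13. The gap of each to the other libraries of its genotype was wider than the gap between the genotypes.

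The mean of Dysf over the 5 unmarked HKII+/- hearts was 178 ± 18.3 CPM, against 145 ± 9.99 CPM over the 5 unmarked HKII+/+ hearts (SD), and the fitted fold was 1.23 (log2 0.30, SE 0.074). With the marked hearts included the means became 206 ± 71.6 CPM for 6 HKII+/- and 176 ± 77.0 CPM for 6 HKII+/+ hearts (SD), and the fitted log2 difference was 0.23 (SE 0.27). In the 10 unmarked libraries, 0.241% of 14107 genes had non-overlapping groups with HKII+/- higher and 0.475% in either direction, and with all 12 libraries the shares were 0.0142% and 0.0213%. Nothing is read from Dysf being among the first of these, since it was chosen from this contrast. As plain CPM, without TMM factors, the groups did not overlap either, at 172 to 204 CPM in unmarked HKII+/- and 136 to 163 CPM in unmarked HKII+/+ libraries. Antisense genes Gm15475 and Gm33024 overlap Dysf, and the strand setting of the counting is not given in the sources used here, so their reads cannot be told apart from those of Dysf.

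The size of the Dysf difference moved with which libraries entered. With all others kept, it was 0.011 on the log2 scale without the library labelled HKII+/- replicate 11 and 0.53 without HKII+/+ replicate 13. Over the unmarked libraries, leaving out any 1 more gave 0.26 to 0.34. The 2 HKII+/- hearts highest in Dysf among the unmarked, replicates 19 and 22, were also the lowest in the 5 atrial cardiomyocyte markers, whose CPM summed to 86.3 and 39.4, against 2009 to 2629 in the other unmarked HKII+/- hearts and 802 to 2136 in the unmarked HKII+/+ hearts. Without these 2 hearts as well, the log2 difference of Dysf was 0.20 (SE 0.067), and with the atrial marker level as a covariate over the 10 libraries it was 0.24.

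**Figure D1:**
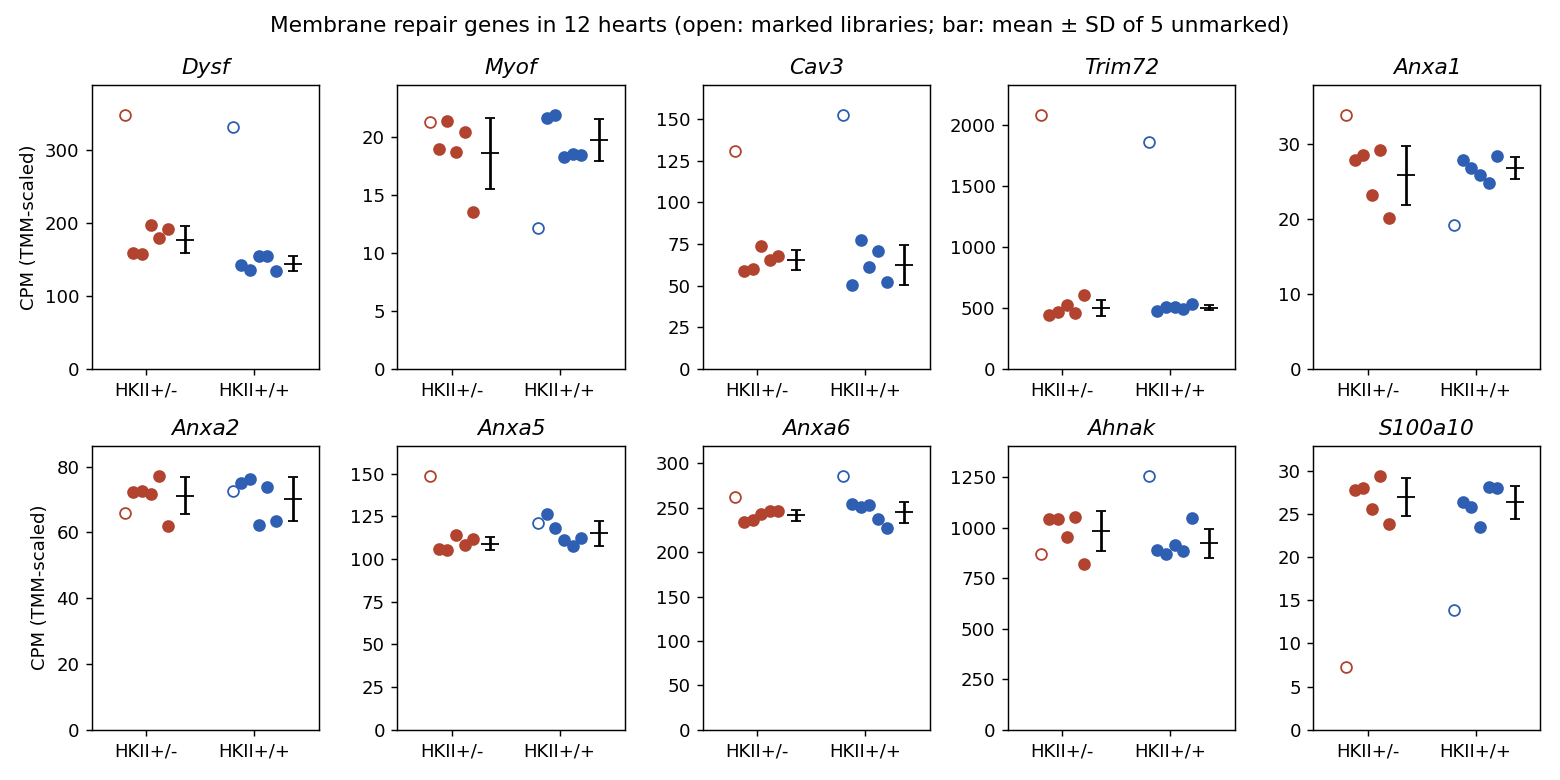
CPM of the 10 genes in each heart, with HKII+/- left and HKII+/+ right in every panel. Open circles are the marked libraries, filled circles the unmarked ones, and bars the mean ± SD of the 5 unmarked libraries. Dysf is the panel in which the filled circles of the genotypes do not overlap, and Trim72, Cav3 and Dysf have both open circles far above the rest.

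No difference between the genotypes was called for any of the 9 other genes. In edgeR's quasi-likelihood test 0 of the 9 passed an adjusted p of 0.05 (Benjamini-Hochberg over all genes tested) with 12 libraries or with 10, and 0 had an unadjusted p below 0.05 in either fit. The limma voom fit also called 0 of the 9 in both sets of libraries. DESeq2 called 0 of the 9 with 10 libraries, and with 12 it gave no p for Trim72 and called none of the others. Over all genes, 0.0% were called with 12 libraries and 0.00707% with 10. At an unadjusted p below 0.05 were 0.262% and 2.8%, so a count of 0 among 9 genes is near the background. The 1 gene called with 10 libraries was Hk2 (log2 fold change -0.80, edgeR adjusted p = 0.0165). With 12 libraries Hk2 was not called (log2 fold change -0.66, edgeR unadjusted p = 0.0054). The absence of a call thus does not show that a difference as small as that of Dysf is absent. With 10 libraries 4 of the 9 had a positive and 5 a negative log2 fold change, with a median of -0.0083, beside -0.0046 over all genes tested. Dysf itself stood at 0.30.

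The 95% intervals show how large a shared rise could have been missed. All 9 intervals held 0 in the 10 libraries. For 8 of the 9 genes the upper bound lay below the 0.30 of Dysf, and for Cav3 it reached 0.32. Dysf was chosen for its rise, so 0.30 may be too large, and its own interval was 0.14 to 0.46. That interval carries the same choice, so whether it overlaps those of the other genes is not read as a comparison. With all 12 libraries the intervals were wide and 6 of the 9 upper bounds lay at or above the Dysf value of 0.23. The difference between Dysf and each other gene was not tested, because the value of Dysf chose the set.

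**Figure D2:**
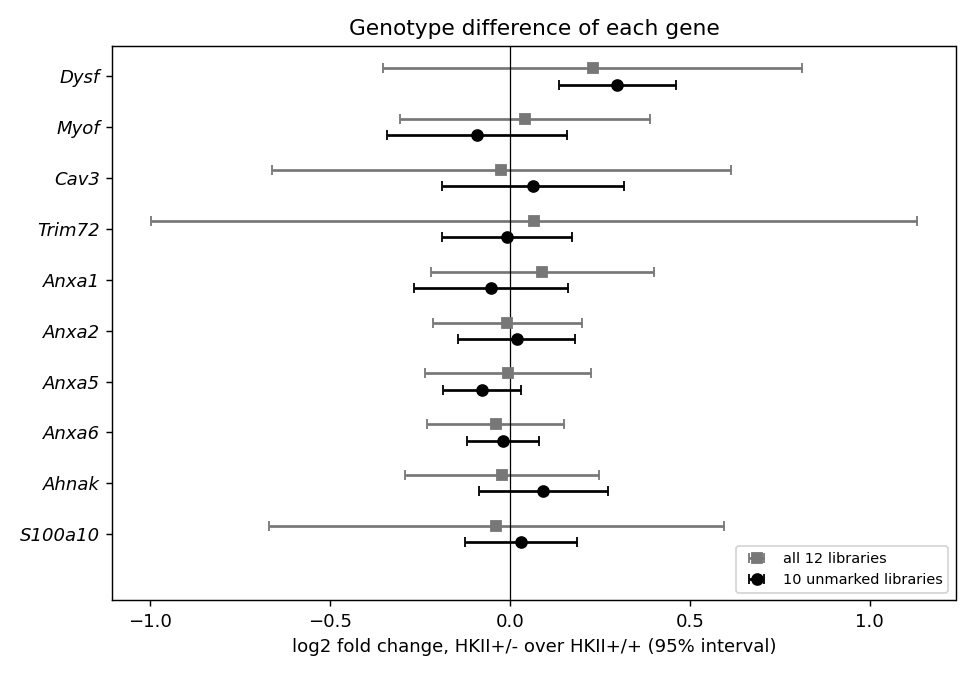
Log2 fold change of HKII+/- over HKII+/+ for each gene with its 95% interval, from the fit across all genes. Grey squares use all 12 libraries and black circles the 10 unmarked ones. The black intervals of the 9 genes other than Dysf hold 0. Dysf (0.30 with 10 libraries) is drawn as a description, since it was chosen from this contrast.

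Myof encodes myoferlin, a ferlin close to dysferlin that takes part in myoblast fusion and in repair in endothelial cells. It measured 13.5 to 21.4 CPM in unmarked HKII+/- libraries, against 18.3 to 21.9 CPM in unmarked HKII+/+ libraries. The ranges overlapped, and the log2 fold change was -0.09 (95% interval -0.34 to 0.16). HKII+/- replicate 22 was the lowest of its genotype, at 13.5 CPM.

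Cav3, the caveolin of muscle cells, lies on chromosome 6 like Dysf but 29.7 Mb from Hk2. It measured 59.1 CPM in HKII+/- replicate 12, 59.9 in 16, 65.4 in 20, 67.7 in 22 and 73.7 in 19, against 50.5 CPM in HKII+/+ replicate 14, 51.9 in 21, 61.2 in 17, 70.7 in 18 and 77.7 in 15. The HKII+/- values fell inside the HKII+/+ range. The log2 fold change over these libraries was 0.06 (SE 0.12).

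Trim72 encodes the muscle E3 ligase MG53, which binds dysferlin and caveolin-3. It measured 445 CPM in HKII+/- replicate 12, 455 in 20, 466.5 in 16, 525 in 19 and 604 in 22, against 477 CPM in HKII+/+ replicate 14, 489.6 in 18, 505 in 17, 506 in 15 and 533 in 21. HKII+/- hearts lay on both sides of the HKII+/+ range, 3 below it and 1 above it. The log2 fold change was -0.0083 (95% interval -0.19 to 0.17). Without replicates 19 and 22 it was -0.14 (edgeR unadjusted p = 0.0219, adjusted p = 0.706), which did not pass. That fit was added after seeing the data and leaves out HKII+/- hearts only. The share of all genes with such an unadjusted p in it is not given here. The antisense gene Gm15533 overlaps Trim72, with the same limit on strand as for Dysf.

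The 4 annexins, which bind negatively charged lipid in the presence of calcium, overlapped between the genotypes. Anxa6, the most abundant of them in heart, measured 234 to 247 CPM in unmarked HKII+/- and 227 to 255 CPM in unmarked HKII+/+ hearts, and its interval was the narrowest of the 9 (log2 -0.12 to 0.08). Anxa5 measured 106 to 114 CPM in unmarked HKII+/- and 108 to 126 CPM in unmarked HKII+/+ hearts, and its fitted log2 difference was -0.08 (95% interval -0.19 to 0.03). Both upper bounds lie below the 0.30 of Dysf, but Dysf was chosen for its rise, so no conclusion is drawn from this. Anxa1 and Anxa2, which are also abundant outside muscle cells, gave fitted log2 differences of -0.05 (SE 0.098) for Anxa1 and 0.02 (SE 0.074) for Anxa2. Genes on the other strand overlap both, 1500015L24Rik for Anxa1 and Gm16144 for Anxa2.

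Ahnak encodes a giant scaffold protein that binds dysferlin, and S100a10 the partner that joins annexin A2 into a heterotetramer. Ahnak measured 822 to 1054 CPM in unmarked HKII+/- and 872 to 1049.5 CPM in unmarked HKII+/+ hearts, with a log2 fold change of 0.09 (SE 0.082). Without replicates 19 and 22 this was 0.18 (edgeR unadjusted p = 0.0196, adjusted p = 0.706), which did not pass, with the same limits as for Trim72. S100a10 measured 23.8 CPM in HKII+/- replicate 22, 25.6 in 19, 27.8 in 12, 28.0 in 16 and 29.4 in 20, against 23.5 CPM in HKII+/+ replicate 17, 25.8 in 15, 26.4 in 14, 28.05 in 21 and 28.08 in 18. The groups overlapped almost entirely, and its log2 fold change was 0.03 (SE 0.071).

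In TMM-scaled CPM, both marked libraries lay outside the range of the 10 unmarked ones, on the same side, for 5 of the 10 genes. In plain CPM this held in the same direction for Dysf, Cav3, Trim72 and S100a10. Trim72 stood at 2082 CPM in the library labelled HKII+/- replicate 11 and 1859.5 CPM in HKII+/+ replicate 13, which were 4.17 and 3.70 times the unmarked mean of their genotype. Cav3 stood at 131 and 152 CPM, or 2.01 and 2.44 times, in the same order, and Dysf at 1.96 and 2.30 times. The side of Anxa6 turned with the scaling: it stood at 262 and 286 CPM with TMM factors, above all unmarked libraries, and at 206 and 217 in plain CPM, below all of them (231 to 276).

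S100a10 went the other way, with 7.27 CPM in the library labelled HKII+/- replicate 11 and 13.8 CPM in HKII+/+ replicate 13, or 27.0% and 52.5% of the unmarked mean of their genotype. Its usual partner Anxa2 stood at 66.1 and 72.7 CPM with TMM factors, inside the unmarked range, but at 51.9 and 55.2 in plain CPM, below all unmarked libraries (61.5 to 81.9). Myof and Anxa1 split, with the library labelled HKII+/- replicate 11 at 21.3 and 33.8 CPM and HKII+/+ replicate 13 at 12.2 and 19.2 CPM. Such shifts were common among all genes in these libraries with TMM factors: 32.1% lay above all 10 unmarked libraries in both and 38.0% below, 12.7% were at least 2-fold up in both, 4.36% at least 3-fold up and 26.3% at or below 0.6 of the unmarked mean. Of the 10 genes, 4 lay above and 1 below in both. The marked libraries were not compared by a test.

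Other measures moved with these libraries. The TMM factor was 0.787 in the library labelled HKII+/- replicate 11 and 0.760 in HKII+/+ replicate 13, against 0.992 to 1.09 in the others, and the 10 most counted genes took 22.6% and 24.4% of counts, against 14.2% to 15.99%. Across 12774 genes, the log2 ratio of a library to the unmarked mean correlated with transcript GC content at a Spearman rho of 0.63 and 0.65 in the marked libraries, against -0.44 to 0.26 in the unmarked ones; genes are not independent replicates. Trim72, Cav3 and Dysf are the 3 genes of the set with the highest GC content, at 59.1%, 56.6% and 55.5%, beside a median of 49.9% over tested genes. S100a10, at 51.4%, does not follow that order. With the GC trend of each unmarked library as a covariate, the log2 difference of Dysf was 0.29 (SE 0.055), close to the value without it. This fit was added after seeing the data. The trend ran from -0.30 to 0.26 in unmarked HKII+/- and from -0.44 to 0.24 in unmarked HKII+/+ libraries. Such a covariate can hardly move a genotype difference, so no conclusion is drawn from this fit. The part of GC content in the Dysf values was not tested.

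**Figure D3:**
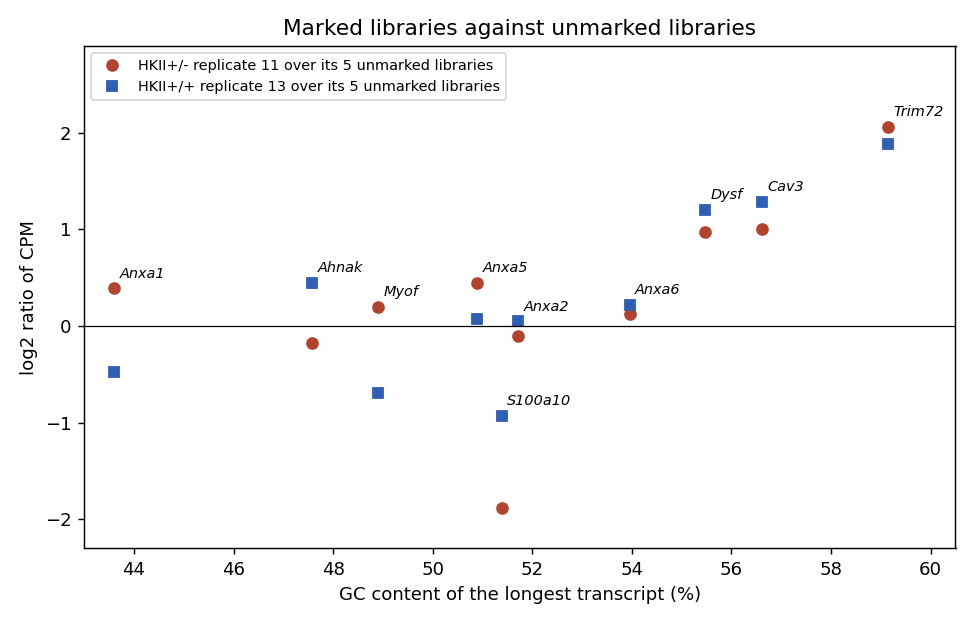
Log2 ratio of the CPM in each marked library to the mean of the 5 unmarked libraries of its genotype, against the GC content of the gene's longest transcript. Red circles are the library labelled HKII+/- replicate 11 and blue squares HKII+/+ replicate 13. Trim72, Cav3 and Dysf lie at the upper right in both, and S100a10 lies below 0 in both.

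Markers of cell types moved as well. The 7 cardiomyocyte markers (Myl2, Myl3, Myh6, Tnnt2, Tnni3, Actc1 and Ryr2) summed to 180940 CPM in the library labelled HKII+/- replicate 11 and 203280 CPM in HKII+/+ replicate 13. The unmarked hearts held 64222 to 88836 CPM in HKII+/- and 69554 to 77241 CPM in HKII+/+. Both libraries in which the muscle repair genes Trim72, Cav3 and Dysf stood high were thus also high in these markers. The 6 fibroblast markers summed to 6332 and 2183 CPM in the marked libraries, against 749 to 1103 CPM in unmarked HKII+/- and 880 to 1179 CPM in unmarked HKII+/+ hearts. With TMM factors the 6 endothelial markers stayed near the unmarked range, at 1112 and 1263 CPM, against 1057 to 1262 CPM in unmarked HKII+/- and 1031 to 1205 CPM in unmarked HKII+/+ hearts.

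The library labelled HKII+/- replicate 11 also stood out for further lists that are low in the other hearts. Its 7 mesothelial markers summed to 202 CPM, its 6 airway and lung markers to 260 CPM, its 5 adipocyte markers to 693 CPM and its 4 Schwann cell markers to 76.1 CPM. HKII+/+ replicate 13 held 59.8, 0.984, 1.77 and 22.03 CPM of the same lists. In the unmarked hearts the highest sums were 110, 1.84, 171 and 26.6 CPM in that order. Macrophage and leukocyte markers summed to 326 and 262 CPM in the marked libraries, smooth muscle markers to 1293 and 773, and mural markers to 618 and 861. No list had a defining marker at 0 in every library except the erythroid one, in which 4 globin genes were listed at 0 throughout. Single markers were at 0 in the marked libraries, however. The lung marker Sftpc was at 0 in the library labelled HKII+/- replicate 11, and Scgb1a1, Sftpc and Ucp1 in HKII+/+ replicate 13. The skeletal muscle marker Myh4 was at 0 in both. Only 2 of the 6 airway and lung genes passed the filter on low counts. The part of these cell types in the levels of the repair genes was not tested.

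Within the genotypes, the repair genes did not vary as 1 group. As a description over the 10 unmarked libraries (deviations of log2 CPM from the genotype mean), Dysf varied with Trim72 (r = 0.51), Anxa6 (0.46) and Cav3 (0.44) and against Anxa1 (-0.74), Ahnak (-0.61), Myof (-0.54) and S100a10 (-0.53). The median r of 9406 other genes with Dysf was 0.11. Of these genes, 25.2%, 28.3% and 29.2% had a higher r than Trim72, Anxa6 and Cav3, so such values were common. For Anxa1, Ahnak, Myof and S100a10 the share was 94.4%, 87.9%, 84.0% and 83.8%. Trim72, Cav3, Dysf and Anxa6 were also the highest of the set in GC content, and Myof, Ahnak and Anxa1 the lowest, with S100a10 between. The part of GC content in this covariation was not tested. Myof, Anxa1, Ahnak and S100a10 varied with one another, with r from 0.55 to 0.86. Several of these values moved when the 2 hearts lowest in atrial markers were left out. Without them (8 libraries) Dysf against Anxa1 was -0.50 and against Trim72 -0.40, while Anxa1 with Trim72 was 0.36 in 8 libraries and -0.84 in 10.

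**Figure D4:**
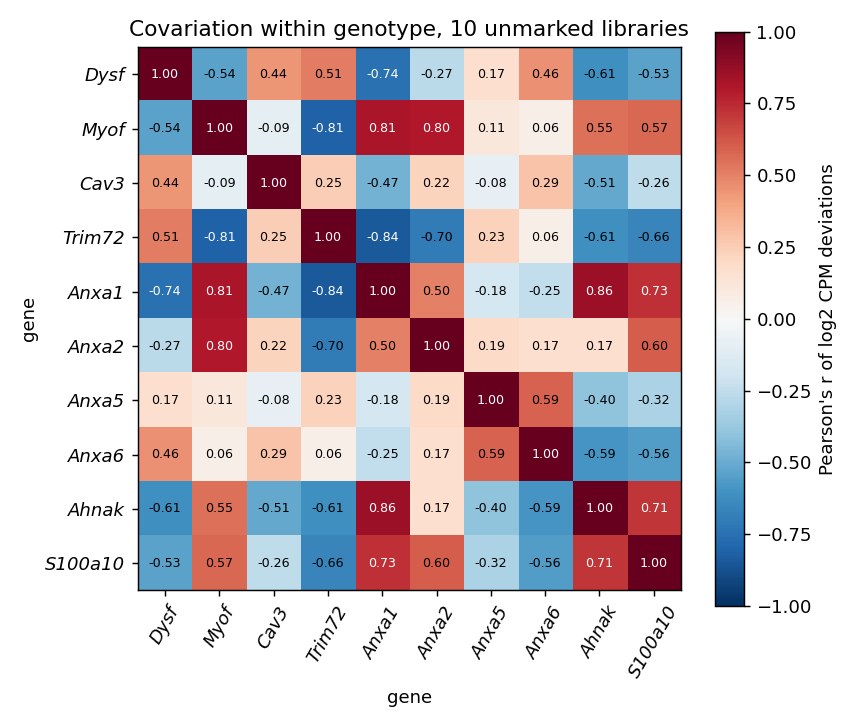
Pearson's r between genes across the 10 unmarked libraries, after the genotype mean of log2 CPM was taken from each value. Red is positive and blue negative. Myof, Anxa1, Ahnak and S100a10 are red with one another and blue with Trim72 and Dysf.

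The genes whose deviations were most like those of Dysf, among those with a mean of at least 3 on the log2 CPM scale, were Tnni3k, a kinase of cardiomyocytes (r = 0.97), Crip2, a LIM domain protein (0.96), Fitm1, a lipid droplet protein (0.96), Hnrnpl, a splicing factor (0.96), and Pink1, a mitochondrial kinase (0.96). The most unlike were Usp25, a deubiquitinase (-0.98), Ralgapb (-0.97) and the RNA-binding protein Pum2 (-0.97). None of these 8 lies on chromosome 6. Their own log2 fold changes between the genotypes ran from -0.02 to 0.09, and none passed (edgeR adjusted p = 0.9999 for each). In the marked libraries, where Dysf was up, the 5 most like genes did not move one way: Tnni3k stood at 0.203 and 0.435 times the unmarked mean of the genotype in the library labelled HKII+/- replicate 11 and HKII+/+ replicate 13, and Pink1 at 1.58 and 1.82 times.

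Between Hk2 and Dysf on chromosome 6 lie 1.23 Mb, with 44 further genes of the count tables by the GENCODE vM21 annotation. Of these, 31 were tested over the unmarked libraries, 11 with a positive and 20 with a negative log2 fold change, with a median of -0.07 beside -0.0046 over all genes tested. None passed in edgeR (lowest adjusted p = 0.9999), 4 were at an unadjusted p below 0.05 (Lbx2, 2310069B03Rik, Dguok and Wdr54), and all 4 had lower values in HKII+/- hearts. Over all 14139 genes tested, 2.8% were at an unadjusted p below 0.05, 214 higher and 182 lower. The largest differences were those of low genes, such as the homeobox gene Lbx2 at 0.444 ± 0.156 CPM in HKII+/- and 0.845 ± 0.129 CPM in the HKII+/+ group (SD, 5 hearts each). Dguok, a mitochondrial deoxyguanosine kinase, averaged 14.997 ± 1.15 CPM in HKII+/- and 17.4 ± 1.34 CPM in the HKII+/+ group (SD, 5 hearts each). Zfml, the tested gene nearest to Dysf, averaged 51.4 ± 9.63 CPM in HKII+/- and 45.9 ± 5.05 CPM in the HKII+/+ group (SD; log2 fold change 0.17, SE 0.12, edgeR adjusted p = 0.9999). The unmarked groups did not overlap for 2 of the 31 genes, beside 0.475% of all 14107 genes. These were Lbx2, lower in HKII+/-, and Ino80b, higher, at 11.7 ± 0.281 CPM in HKII+/- and 10.8 ± 0.356 CPM in the HKII+/+ group (SD). Beside the 20 of 31 genes with a negative log2 fold change, 7457 of all 14139 genes tested had one. An effect of the region on Dysf was not tested.

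**Figure D5:**
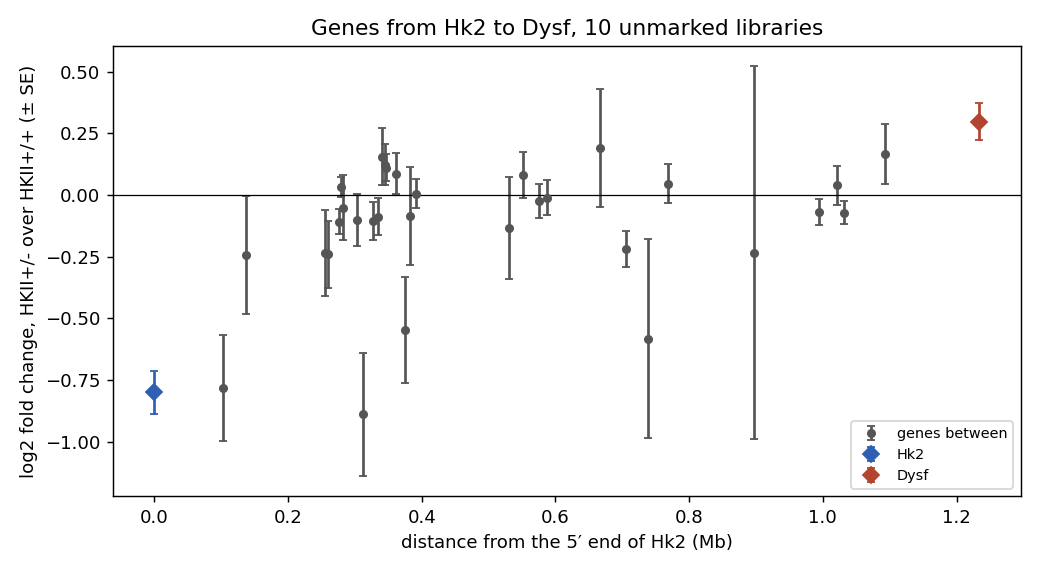
Log2 fold change of HKII+/- over HKII+/+ (± SE, 10 unmarked libraries) against distance from the 5′ end of Hk2 in megabases. Blue is Hk2 (-0.80), red is Dysf (0.30) and grey are the 31 tested genes between them. Grey points lie on both sides of 0, 20 of them below it.

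Further genes of the same processes gave no called member in either fit. Of the other ferlin, annexin and S100 genes, 17 of 19 were in the tables and 14 were tested, 5 higher and 9 lower with 10 libraries (median log2 fold change -0.03). Fer1l5, a ferlin, had the smallest p (log2 fold change 0.21, SE 0.11, edgeR adjusted p = 0.9999), followed by Anxa3 (0.10, SE 0.059) and the calcium-binding protein gene S100a4 (-0.32, SE 0.19). Of 15 caveola and T-tubule genes, 8 were higher and 7 lower (median 0.02). The smallest p there belonged to Ehd3 (-0.19, SE 0.099), the cavin gene Sdpr (0.08, SE 0.055) and Tcap, the titin cap (-0.24, SE 0.17).

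Of 22 tested genes for calpains, vesicle fusion and the ESCRT machinery, 9 were higher and 13 lower (median -0.02), with the smallest p for the scramblase gene Ano6 (-0.08, SE 0.055), the non-muscle myosin gene Myh9 (0.11, SE 0.086) and the acid sphingomyelinase gene Smpd1 (0.13, SE 0.12). Of 24 genes for the dystrophin complex and the costamere, which tie the membrane to the cytoskeleton, 14 were higher and 10 lower (median 0.02). Pomt2 (0.10, SE 0.056), the sarcospan gene Sspn (-0.15, SE 0.10) and Sntb2 (0.09, SE 0.074) led that list. In all 4 lists 0 genes were at an unadjusted p below 0.05 in either edgeR fit, where 2.8% of all genes were with 10 libraries.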

How the data were processed

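For each library the authors deposited 1 table of raw counts by gene symbol, without normalisation. Per the submitters' processing notes, reads were processed with STAR 2.4.0 and featureCounts 1.4.4 on mm10/GRCm38. Reads were single-end of 100 nt, per the labels' protocols. Neither the annotation release nor the strand setting is stated there or in the labels.

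Genotypes came from the titles, and libraries are taken as separate animals. Should any share an animal, the p-values cover that narrower spread. Within each genotype, no 2 libraries were duplicates (lowest chi-square per degree of freedom 7.03). Pairs across the genotypes were not checked. The test was edgeR 4.0.16 (glmQLFit, glmQLFTest) in R 4.3.3 with TMM factors, filterByExpr at a minimum count of 10 and Benjamini-Hochberg adjustment over all genes tested, 14107 with 12 libraries and 14139 with 10. All 10 genes of the set passed the filter. CPM used the TMM factors of all 12 libraries, except where plain CPM is named. Intervals are 95% from the fitted standard error. The fits were first run on simulated counts, whose changes were all larger than the fitted difference of Dysf. That run does not measure power for a difference of that size.

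The members and lists were chosen with earlier results of these data known. Named genes were the set, Hk2, and the 3 genes of each further list with the smallest p over 10 libraries and any called. The 5 most like and 3 most unlike Dysf and the tested genes between Hk2 and Dysf were named too. Of the latter, Lbx2, 2310069B03Rik, Dguok, Wdr54, Ino80b and Zfml are named for their values or place. Positions, exon lengths and GC content are from GENCODE vM21 (GRCm38), where 22707 symbols matched directly and 933 by another symbol. Alternatives were other scaling, filters, DESeq2 1.42.0, limma 3.58.1 voom with and without sample quality weights, an atrial marker covariate, and leaving out libraries. A GC covariate and leaving out replicates 19 and 22 were added after seeing the data.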

Additional observations from a re-analysis of the deposited data

Results flagged for a closer look

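In 11 of 20 groups (10 genes, 2 genotypes) 1 library lay further from its nearest neighbour, relative to the range of its 6 libraries, than Dixon's 95% critical value allows. Chance alone flags about 1 in 20 independent groups, but these groups share the same 12 libraries. The share of all genes flagged in this way was not computed. In 10 of the 11 the library was a marked one. Such shifts were common among all genes: in both marked libraries 32.1% lay above all 10 unmarked libraries and 38.0% below. The count of flags is therefore not read as a result about the repair genes. The library labelled HKII+/- replicate 11 was the highest of its genotype for Dysf (348 CPM), Cav3 (131), Trim72 (2082) and Anxa5 (149), and the lowest for S100a10 (7.27). HKII+/+ replicate 13 was the highest of its genotype for Dysf (332 CPM), Cav3 (152) and Trim72 (1859.5), and the lowest for Myof (12.2) and S100a10 (13.8). These values carry TMM factors, and in plain CPM Anxa5 in replicate 11 (117 CPM) was inside the unmarked range of its genotype (111 to 117.2 CPM). The remaining value was Myof in HKII+/- replicate 22 (13.5 CPM), the heart lowest in atrial markers.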

How the results depend on the processing

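The count of called members other than Dysf was 0 under every alternative run, with 12 or 10 libraries, where DESeq2 with 12 gave no p for Trim72. Of all genes, 0 were called with 12 libraries, also without any 1 of them, 2 with sample quality weights and 1 without both marked libraries. Over the 10 unmarked libraries DESeq2 called 3, and leaving out 1 more gave 0 to 2, with 2 without HKII+/+ replicate 21. The log2 difference of Dysf was positive under every alternative run, but among 12 it was near 0 without HKII+/- replicate 11 (0.011, SE 0.24). It was 0.53 without HKII+/+ replicate 13 among 12, and 0.20 over the unmarked libraries without replicates 19 and 22. The other members lie near 0, and their direction turned often. Without both marked libraries it turned for Myof (-0.092), Cav3 (0.063), Trim72 (-0.0083), Anxa1 (-0.053), Anxa2 (0.019), Ahnak (0.092) and S100a10 (0.032). With sample quality weights it turned for Myof (-0.044), Cav3 (0.036), Trim72 (-0.063), Anxa2 (0.058), Ahnak (0.16) and S100a10 (0.10). With no scaling factors it turned for Cav3 (0.00062), Anxa2 (0.0037) and Ahnak (0.014), with the filter at 50 counts for Anxa2 (0.00099) and Anxa5 (0.0042), and with limma voom for Cav3 (0.039). From the value of 10 libraries the atrial covariate turned Myof (0.0055) and Anxa1 (0.041), and leaving out replicates 19 and 22 turned Myof (0.034), Cav3 (-0.020) and Anxa1 (0.095). The cause of these turns was not tested. Without each library of 12 in turn, the log2 fold change ran -0.038 to 0.13 (Myof), -0.25 to 0.30 (Cav3), -0.55 to 0.63 (Trim72), -0.040 to 0.031 (Anxa2), -0.090 to 0.022 (Anxa5), -0.068 to 0.015 (Anxa6), -0.052 to 0.076 (Ahnak) and -0.15 to 0.15 (S100a10). Without each library of 10 it ran -0.15 to 0.0083 (Myof), -0.0071 to 0.15 (Cav3), -0.085 to 0.028 (Trim72), -0.10 to 0.028 (Anxa1), -0.021 to 0.066 (Anxa2) and -0.0071 to 0.076 (S100a10). No paired analysis was possible because each replicate number was used for 1 heart. The lowest counts of the set were 171 for S100a10 in HKII+/- replicate 11 and 186 for Myof in HKII+/+ replicate 13.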
